A study of Mus musculus with 2 samples.

Results

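The genes described here carry symbols of mitochondrial ribosomal proteins and are called mitoribosomal genes, though the product of Mrps36 is not a ribosomal protein. They were chosen by name, as every row of the expression files whose gene symbol starts with Mrpl or Mrps followed by a number. The rule found 75 genes among 22882 gene symbols, 46 of the large subunit (Mrpl) and 29 of the small subunit (Mrps), and each stood on a single row. The rule uses no measured value, though it was chosen with earlier results of these data known.

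RNA was taken from whole hearts of 23-day-old mice on a C57BL6/J background, males and females mixed. The control pool held 5 Med1fl/fl mice, which carry the floxed Med1 allele, and the other pool held 5 csMed1-/- mice, which carry the same floxed allele together with Cre recombinase driven by the α-myosin heavy chain promoter, so that Med1, a subunit of the Mediator complex of transcription, is deleted in cardiomyocytes. 1 library was sequenced from each pool, so there are no replicates, no value below has an error between animals, and no test between the genotypes was possible. Cells other than cardiomyocytes are not targeted by this Cre and remain in both pools. In whole-heart RNA, fewer cardiomyocytes and less of a transcript per cardiomyocyte cannot be told apart.

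The mitochondrial ribosome translates the few proteins encoded by mitochondrial DNA, all of them membrane subunits of the oxidative phosphorylation complexes. All of its proteins are encoded in the nucleus, made in the cytosol and imported, while its RNAs are transcribed inside the organelle. Many of the proteins descend from those of the bacterial ribosome, and others were added during the evolution of mitochondria. Heart muscle is among the tissues richest in mitochondria, and inherited defects of several of these proteins cause cardiomyopathy in infancy.

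Values are FPKM, read fragments per kilobase of transcript after scaling for the size of the library, which allow levels to be compared between genes. The change of a gene is given as the ratio of csMed1-/- to Med1fl/fl FPKM or its log2. A gene was kept if neither library had it at 0 and at least 1 of them reached 1 FPKM, which left 10489 genes, and ratios past 2-fold were counted. Of the 75 mitoribosomal genes 74 were kept. The other was Mrpl1, the protein of the L1 stalk, at 0.76 FPKM in the control pool and 0.437 FPKM in the csMed1-/- pool. Med1 itself had 3.38 FPKM in the control pool and 0.412 FPKM in the csMed1-/- pool. Of 8 cardiomyocyte marker genes, 7 had a row; their summed level was 51664 FPKM in the control pool and 30591 FPKM in the csMed1-/- pool, with Actc1 listed at 0 in control. Actc1 had 9189 FPKM in csMed1-/- heart, and without it the other 6 markers summed to 51664 and 21402 FPKM. Of these 6, Tnni3 (10283 and 1537 FPKM), Myl2 (20467 and 6571 FPKM) and Tnnt2 (2280 and 1119 FPKM) were lower past 2-fold. Myl3 (17340 and 10278 FPKM) and Ttn (8.22 and 5.75 FPKM) were lower within 2-fold, and Actn2 (1286 and 1892 FPKM) was higher. Of 6 fibroblast markers, all above 0, the collagens Col1a1 (129 and 502 FPKM), Col1a2 (95.7 and 314 FPKM) and Col3a1 (139 and 219.96 FPKM) were higher in csMed1-/- heart, while Pdgfra (4.09 and 4.03 FPKM), Dcn (114 and 96.6 FPKM) and Lum (8.04 and 3.72 FPKM) were not. The part of these cell markers in the mitoribosomal values was not tested.

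In csMed1-/- heart the mitoribosomal genes were mostly lower than in control. Of the 74 genes kept, 57 (77.0%) had a ratio below 1, against 53.2% of all genes kept, and 17 had a ratio above 1. Past 2-fold, 24 were lower, or 32.4%, against 18.0% of all 10489 genes, and 0 were higher, against 13.6% of all genes. The median ratio was 0.645 (log2 -0.63), whereas the median log2 ratio of all genes was -0.07. Together the 74 genes held 0.975% of the summed FPKM of the control library and 0.753% of that of the csMed1-/- library.

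**Figure D1:**
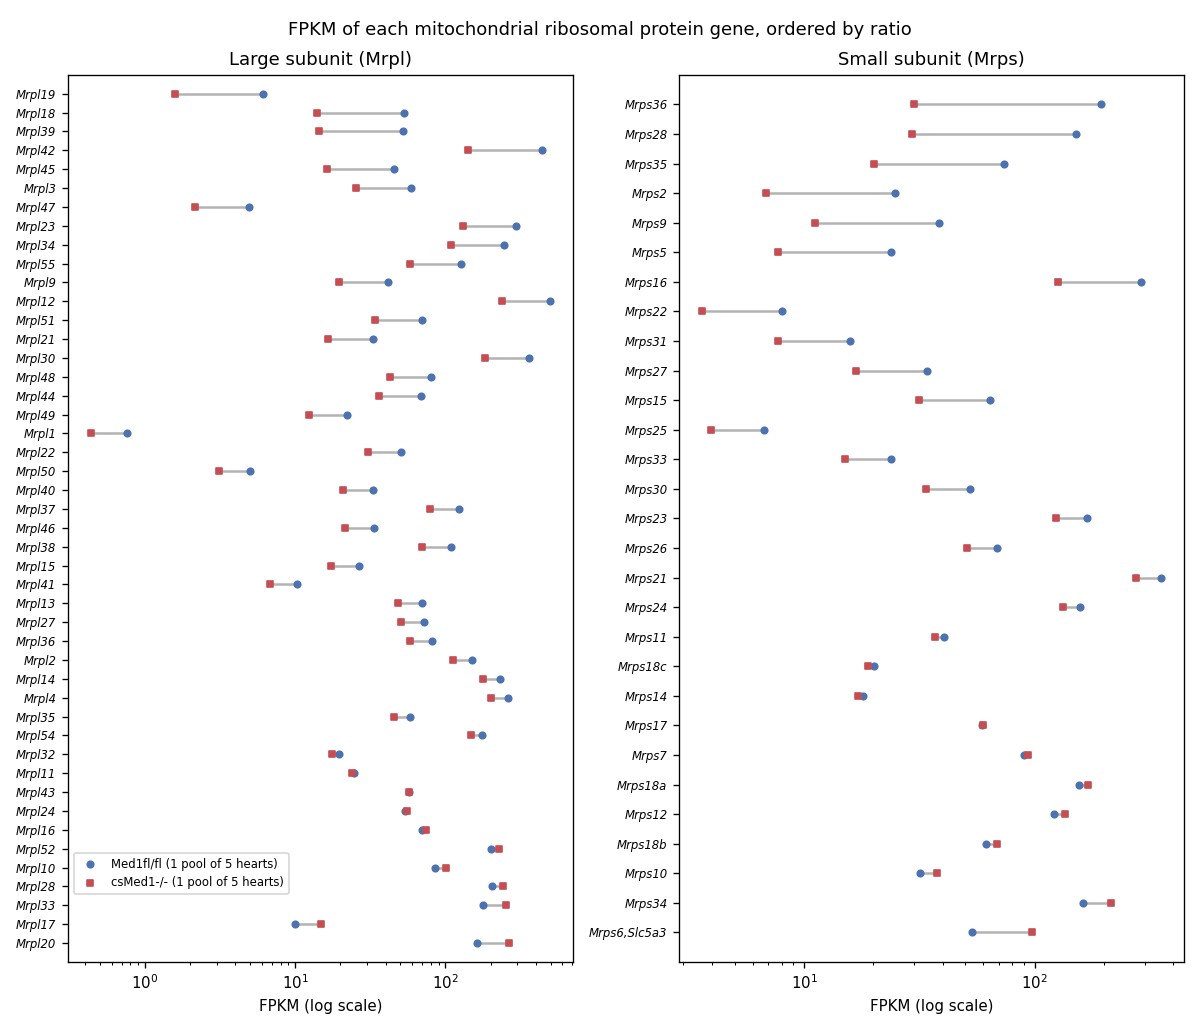
FPKM on a log scale of all 75 mitoribosomal genes in the Med1fl/fl pool (circles) and the csMed1-/- pool (squares), large subunit on the left and small subunit on the right, ordered from the lowest to the highest ratio. The widest downward gaps were at Mrps36 (194 to 29.9 FPKM) and Mrps28 (151 to 29.5 FPKM), and the widest upward gap at the row Mrps6,Slc5a3 (53.6 to 97.5 FPKM).

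The large and the small subunit were then compared. The 45 large-subunit genes kept had a median log2 ratio of -0.65, with quartiles of -1.05 and -0.24, and 13 of them (28.9%) were lower past 2-fold. The 29 small-subunit genes had a median log2 ratio of -0.45, with quartiles of -1.15 and 0.02, and 11 of them (37.9%) were lower past 2-fold. The medians differed by 0.2 on the log2 scale, a difference that could not be tested with 1 library per genotype. Summed over the genes, FPKM went from 5043 to 3515 for the large subunit (ratio 0.697) and from 2562 to 1877 for the small subunit (ratio 0.733). The small subunit held both the lowest and the highest single ratios. Its highest value is the row Mrps6,Slc5a3, in which the gene of bS6m is joined with the overlapping gene of a sodium/myo-inositol transporter, and the files do not say how much of the row belongs to either. Without that row the median of the small subunit was -0.54 and the difference between the subunits 0.11. The ratio of summed FPKM of the small subunit was then 0.710.

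Among small-subunit genes, Mrps36 (chromosome 13, 100735955 to 100744659, minus strand, GRCm38) had the lowest ratio. It stood at 194 FPKM in the control pool and 29.9 FPKM in the csMed1-/- pool, a ratio of 0.154 (log2 -2.70). Its product was named as a ribosomal protein but is a component of the 2-oxoglutarate dehydrogenase complex of the citric acid cycle. The rule by symbol counts Mrps36 in the small subunit, and no median, sum or count of that whole subunit is given without it. The annotation lists 3 pseudogenes under its symbol, and whether the authors' counting could split reads among them is not given in the sources used here. Mrps28 (chromosome 3, 8802146 to 8923918, minus strand), a protein with a fold like that of bacterial S1, had 151 and 29.5 FPKM, a ratio of 0.195 (log2 -2.36). These 2 genes were the only genes found by the rule that lay past 4-fold, and of the 2 only Mrps28 encodes a ribosomal protein.

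The next small-subunit genes in order were Mrps35 (73.7 and 20.2 FPKM, log2 -1.87) and Mrps2 (24.9 and 6.85 FPKM, log2 -1.86), the homologue of bacterial S2. Mrps9, a protein of the head of the subunit, had 38.6 FPKM in the control pool and 11.2 FPKM in the csMed1-/- pool (log2 -1.79). Mrps5, whose bacterial homologue lines the entry of the mRNA channel, had 23.9 and 7.69 FPKM (log2 -1.64). The ratios of these 4 genes lay between 0.274 and 0.321. Mrps16 had 288 and 126 FPKM (log2 -1.19), Mrps22 7.99 and 3.61 FPKM (log2 -1.15), Mrps31 15.8 and 7.7 FPKM (log2 -1.03), Mrps27 34.3 and 16.8 FPKM (log2 -1.03) and Mrps15 63.8 and 31.6 FPKM (log2 -1.01). The last 3 lay just past the 2-fold line, with ratios of 0.488, 0.491 and 0.495, and the first small-subunit gene inside it was Mrps25, at 6.73 and 3.97 FPKM (ratio 0.59).

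At the other end of the small subunit, Mrps34 had 163 FPKM in the control pool and 214 FPKM in the csMed1-/- pool (ratio 1.31, log2 0.39), the highest ratio apart from the joined row. Mrps10, a protein of the head, had 31.7 and 37.6 FPKM (log2 0.25). Mrps12, the homologue of the bacterial decoding protein S12, had 122 and 135 FPKM (log2 0.15). Mrps7, also of the head, had 90.3 and 94.0 FPKM (log2 0.06), and Mrps17 had 59.2 and 60.0 FPKM (log2 0.02). So within the head of the same subunit Mrps9 was far below control while Mrps7 and Mrps10 were close to it. Mrps23, among the 5 most abundant of the subunit in control, had 168 and 124 FPKM (log2 -0.45). The signs of Mrps7 and Mrps17 turned under other scalings of the libraries.

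Mrps18a, Mrps18b and Mrps18c are 3 paralogues related to bacterial S18, and none was far from control. Mrps18a had 155 FPKM in the control pool and 169.9 FPKM in the csMed1-/- pool (log2 0.13). Mrps18b had 61.5 and 68.5 FPKM (log2 0.15), and Mrps18c had 20.1 and 18.9 FPKM (log2 -0.09). Their order of level, with Mrps18a highest and Mrps18c lowest, was the same in both libraries. In structures of the mammalian ribosome the product of Mrps18a sits in the large subunit, as does that of Mrps30 (52.3 and 33.8 FPKM, log2 -0.63), which despite its symbol is a large-subunit protein. With both counted in the large subunit, its median log2 ratio was -0.64 and that of the small subunit -0.45. The ratios of summed FPKM were then nearly equal, 0.708 for the large and 0.711 for the small subunit.

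The lowest ratios of the large subunit were those of Mrpl19 and Mrpl18. Mrpl19 (chromosome 6, 81957851 to 81965958, minus strand) had 6.13 FPKM in the control pool and 1.59 FPKM in the csMed1-/- pool, a ratio of 0.259 (log2 -1.95). Mrpl18 (chromosome 17, 12911349 to 12916345, minus strand), whose homologues elsewhere bind 5S ribosomal RNA, had 53.2 and 13.9 FPKM, a ratio of 0.261 (log2 -1.94). Mrpl39, a mitochondria-specific protein, followed at 51.8 and 14.4 FPKM (log2 -1.84). Their ratios were thus close together, from 0.259 to 0.278, although Mrpl19 was among the least abundant mitoribosomal transcripts.

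Mrpl42 stood out by its level as well. It was the second most abundant mitoribosomal transcript in control, at 436 FPKM, and had 141 FPKM in the csMed1-/- pool (ratio 0.324, log2 -1.62). Its rank among the 75 genes went from 2 to 13. Mrpl12 (chromosome 11, 120484613 to 120489065, plus strand), the protein of the stalk that recruits translation factors, was the most abundant in control at 495 FPKM and had 239 FPKM in the csMed1-/- pool (ratio 0.483, log2 -1.05). Mrpl30 had 359.8 and 183 FPKM (log2 -0.97), just inside 2-fold, and Mrpl4, at the wall of the peptide tunnel, had 260.3 and 199.6 FPKM (log2 -0.38). In control the 3 highest transcripts were therefore Mrpl12, Mrpl42 and Mrpl30, whereas in csMed1-/- heart they were Mrps21 (353 in control and 276 FPKM), Mrpl20 and Mrpl33.

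Several further large-subunit genes lay past 2-fold. Mrpl47, the homologue of bacterial L29, had 4.89 FPKM in the control pool and 2.14 FPKM in the csMed1-/- pool (log2 -1.19). Mrpl23 had 295 and 130.0 FPKM (log2 -1.18), Mrpl34 had 244 and 108 FPKM (log2 -1.17) and Mrpl55 had 128 and 58.0 FPKM (log2 -1.14). Mrpl9 had 41.2 and 19.5 FPKM (log2 -1.08) and Mrpl51 had 69.5 and 33.9 FPKM (log2 -1.04). They show that the 2-fold line was crossed by abundant and by scarce transcripts alike. Just inside it, Mrpl21 had 32.7 and 16.5 FPKM (ratio 0.504) and Mrpl48 had 80.6 and 42.5 FPKM (ratio 0.527).

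Large-subunit genes above control were fewer and closer to it. Mrpl20 (chromosome 4, 155802878 to 155809975, plus strand), the homologue of a protein that bacteria need early in assembly of the subunit, had 161 FPKM in the control pool and 267 FPKM in the csMed1-/- pool, a ratio of 1.65 (log2 0.72). Mrpl17 had 9.9 and 14.9 FPKM (log2 0.59), and Mrpl33 had 178 and 251 FPKM (log2 0.50). Mrpl28 had 203 and 243 FPKM (log2 0.26), Mrpl10 84.9 and 100.2 FPKM (log2 0.24) and Mrpl52 had a log2 ratio of 0.19. None of them reached 2-fold. Mrpl16 (log2 0.08), Mrpl24 (0.05), Mrpl43 (0.01) and Mrpl11 (-0.04) were nearly at control, and the sign of each of these 4 turned under at least 1 other scaling of the libraries. Counting both subunits, 10 genes lay within 10% of control, and the share of all genes that did so is not given here.

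**Figure D2:**
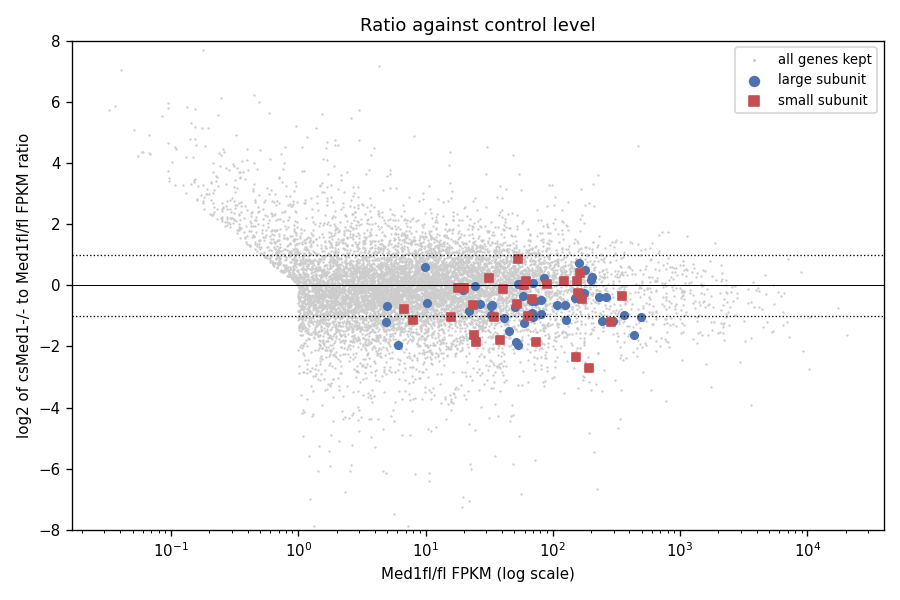
The log2 ratio of csMed1-/- to Med1fl/fl FPKM against control FPKM on a log scale, for all genes kept (grey dots, 1 of them beyond the axis) and for large-subunit (circles) and small-subunit (squares) genes. Dotted lines mark 2-fold. The mitoribosomal genes lie mostly below 0, and none lies above the upper dotted line.

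Some proteins that sit at the same site of the ribosome are set side by side here, with sites and examples chosen after their values were seen. In the stalk, Mrpl12 was past 2-fold below control while its neighbour Mrpl10 was above control (ratio 1.18) and Mrpl11 (24.4 and 23.8 FPKM) was near it. Around the peptidyl transferase centre, where peptide bonds are made, Mrpl3 had 59.2 and 25.3 FPKM (log2 -1.23), Mrpl27 had 72.2 and 50.8 FPKM (log2 -0.51), Mrpl2 had 149 and 112 FPKM (log2 -0.41) and Mrpl16 had 70.0 and 74.0 FPKM (log2 0.08). At the exit of the peptide tunnel, Mrpl45, which anchors the ribosome to the inner membrane, had 45.5 and 16.2 FPKM (log2 -1.49). There Mrpl22 had 50.4 and 30.5 FPKM (log2 -0.72), Mrpl24 had 53.5 and 55.2 FPKM (log2 0.05) and the bacterial L17 homologue Mrpl17 was above control. Mrpl23 and Mrpl47, also at the exit, were both lower past 2-fold.

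Inherited cardiomyopathy has been linked to MRPL3, MRPL44, MRPS22 and MRPS14 in humans. Of the mouse genes, Mrpl3 and Mrps22 were lower past 2-fold. Mrpl44 had 68.3 FPKM in the control pool and 36.2 FPKM in the csMed1-/- pool (ratio 0.53, log2 -0.92). Mrps14 had 18.1 and 17.1 FPKM (ratio 0.943, log2 -0.08).

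The genes were also grouped by origin, into homologues of bacterial ribosomal proteins and proteins found in mitochondria and not in bacteria; Mrpl1 was below the filter, and Mrpl55, Mrps18a, Mrps18b and Mrps36 were left out of both classes. The 26 mitochondria-specific genes had a median log2 ratio of -0.68, with quartiles of -1.03 and -0.60, and 23 of them were below control. The 44 homologues of bacterial proteins had a median log2 ratio of -0.40, with wider quartiles of -1.10 and 0.03, and 32 of them were below control. The shares below control were thus 88.5% and 72.7%, against 53.2% of all genes kept. Past 2-fold the classes held similar shares of lower genes, 8 of 26 (30.8%) and 14 of 44 (31.8%), against 18.0% of all genes kept. The classed genes above control were mostly homologues of bacterial proteins, 12 of 44 against 3 of 26, the latter being Mrps34, Mrpl52 and Mrpl43. The 12 include the joined row Mrps6,Slc5a3. They also include Mrpl16, Mrpl24, Mrps7 and Mrps17, whose signs, like that of Mrpl43, turned under other scalings. Mrps18a and Mrps18b, left out of both classes, were above control as well. No test of this difference was made.

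**Figure D3:**
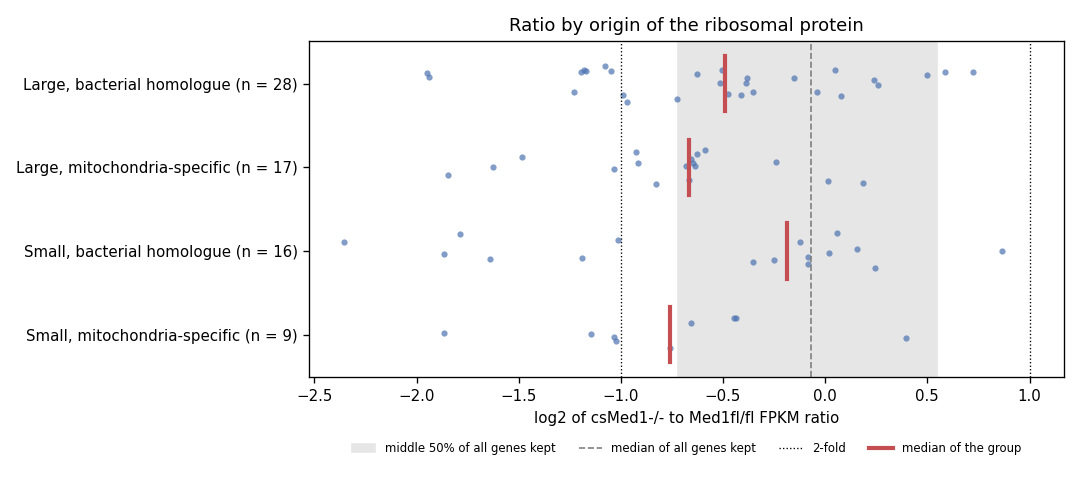
The log2 ratio of csMed1-/- to Med1fl/fl FPKM for each classed mitoribosomal gene kept, by subunit, as placed by structure, and by origin. A bar marks the median of each class. Mrpl55, Mrps18a, Mrps18b and Mrps36, left out of both classes, are not shown. Medians were -0.49 and -0.67 in the large subunit and -0.19 and -0.76 in the small subunit, for homologues of bacterial proteins and for mitochondria-specific proteins.

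Some mitoribosomal proteins carry other symbols and were not found by the rule. Of 6 such genes fixed on a list, Ptcd3, a pentatricopeptide repeat protein near the mRNA entrance, had 11.8 FPKM in the control pool and 2.31 FPKM in the csMed1-/- pool (log2 -2.35). Ict1, a peptidyl-tRNA hydrolase built into the large subunit, had 132 and 63.3 FPKM (log2 -1.06). The other 4 were within 2-fold, Gadd45gip1 at 35.6 and 24.1 FPKM (log2 -0.56), Chchd1 at 88.3 and 76.2 FPKM (log2 -0.21), Dap3, a GTP-binding protein, at 35.1 and 30.6 FPKM (log2 -0.20) and Aurkaip1 at 137 and 176 FPKM (log2 0.36). The row Mrp63, seen after the files were opened, had 9.86 and 13.6 FPKM. The joined row Ccdc142,Mrpl53 had 243 and 269 FPKM, which cannot be assigned to either gene.

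The wider machinery of mitochondrial translation was taken from fixed lists. The list of translation factors also holds genes that are not translation factors in the strict sense, such as Lrpprc, Oxa1l and Pdf. Of the 13 genes kept from this list, 13 were below control, against 53.2% of all genes kept, and their median log2 ratio was -1.34. Past 2-fold, 9 of them (69.2%) were lower, against 18.0% of all genes. Lrpprc, which stabilises mitochondrial mRNAs, had the lowest value, 19.5 FPKM in the control pool and 2.72 FPKM in the csMed1-/- pool (log2 -2.84). The ribosome recycling factor Mrrf had 31.4 and 7.56 FPKM (log2 -2.06), the elongation factor Tufm, the most abundant of the list, had 307 and 162 FPKM (log2 -0.92), and the formyltransferase Mtfmt, with the highest ratio, had 2.51 and 1.68 FPKM (log2 -0.58). Of 20 genes of ribosome assembly and rRNA modification kept, 9 (45%) were lower and 0 higher past 2-fold. The shares of all genes were 18.0% and 13.6%, and the median log2 ratio of the 20 genes was -0.86. They ran from Mettl17 (16.3 and 2.29 FPKM, log2 -2.83) to Mpv17l2 (46.6 and 83.3 FPKM, log2 0.84).

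Against these lists the mitoribosomal genes were set beside the cytosolic ribosome and the nuclear subunits of oxidative phosphorylation. The 78 cytosolic ribosomal protein genes kept had a median log2 ratio of 0.00, and 1 of them (1.28%) was lower past 2-fold. That gene was Rpl3l, the striated muscle paralogue of Rpl3, at 337 and 16.1 FPKM (log2 -4.39). The SD of the log2 ratio was 0.60 across the 78 cytosolic genes, 0.65 across the large and 0.88 across the small mitoribosomal subunit. It was 0.34 across the cytosolic genes without Rpl3l and 0.84 across the small mitoribosomal subunit without the joined row, with Mrps36 still in. Across all genes kept the SD was 1.26, and across the nuclear subunits of oxidative phosphorylation it was 0.53. The 80 nuclear subunits of oxidative phosphorylation had a median log2 ratio of -0.78, with 28 (35.0%) lower and 0 higher past 2-fold, from Atp5f1 (log2 -2.03) to Cox6b2 (0.29). Of these 80 genes, 76 (95.0%) were below control and 4 above it. The shares below control were 77.0% of the mitoribosomal genes and 53.2% of all genes kept. Without the 4 subunits of complex II, which has no subunit encoded by mitochondrial DNA, 25 of 76 (32.9%) were lower past 2-fold. The mitoribosomal share was 32.4%, and that of all genes kept 18.0%. Leaving out complex II was chosen after the data were seen. Cytosolic ribosomal proteins have many pseudogenes, so their single values are uncertain where reads could be split.

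**Figure D4:**
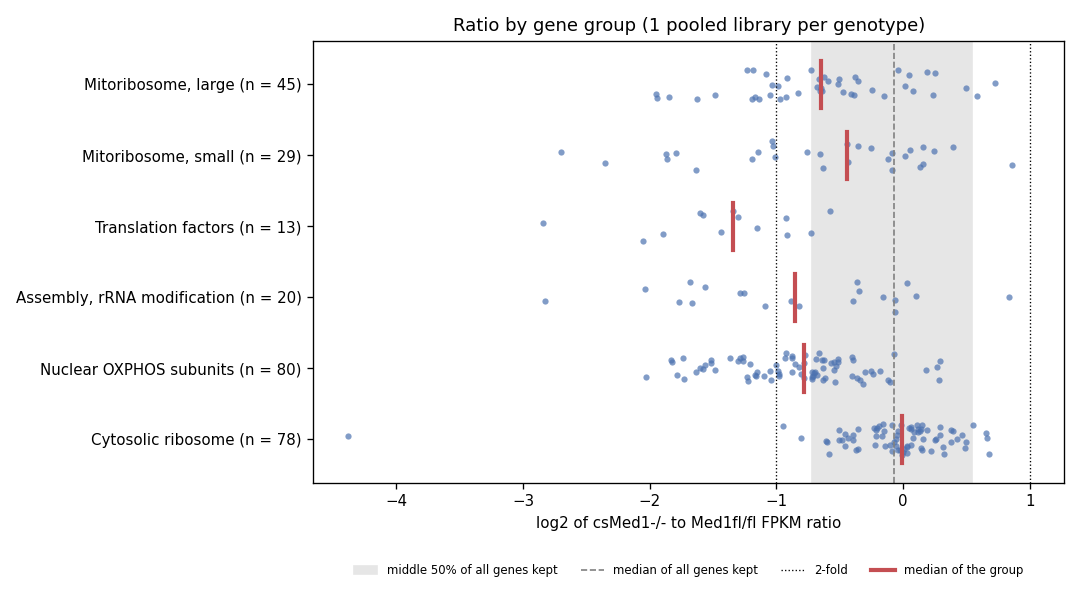
The log2 ratio of csMed1-/- to Med1fl/fl FPKM for each gene kept in 6 groups, with a bar at each group's median, a grey band for the middle 50% of all genes kept and dotted lines at 2-fold. Both subunits of the mitochondrial ribosome, translation factors, assembly genes and nuclear subunits of oxidative phosphorylation have medians below that of all genes, and the cytosolic ribosome has a median at 0.00.

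The order of transcript levels was largely kept between the libraries. Levels of the kept genes in control ran from 4.89 to 495 FPKM, and in csMed1-/- heart from 1.59 to 276 FPKM. Across the 74 genes Spearman's rho between the levels in the libraries was 0.897, a description across genes that share their libraries. The ratio had little relation to the control level (rho 0.12 across 74 genes). The SD of the log2 level across genes was 1.58 in control and 1.79 in csMed1-/- heart.

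Mitoribosomal genes often start head to head with another gene. In the GENCODE M21 annotation of GRCm38, 32 of 75 (42.7%) have a protein-coding gene on the opposite strand whose start lies within 1000 bases of their own, against 16.1% of the 9171 genes kept that are annotated. For 23 of the 32 the neighbour was kept too, and in 12 of the 23 both genes were on the same side of control. The share over all head-to-head pairs of genes kept is not given here, so this count has no reference. The neighbours of Mrpl43 and Mrps30, Twnk and B430218F22Rik, had no row under these symbols and so are not among the 23. Mrps27 and its neighbour Ptcd2, a pentatricopeptide repeat protein, were both lower past 2-fold, and Ptcd2 had 48.7 and 12.8 FPKM (log2 -1.93). Mrpl18, in contrast, lies beside Tcp1, a subunit of the cytosolic chaperonin, which had 66.0 and 74.6 FPKM (log2 0.18). Mrpl44 lies beside Wdfy1, which had 3.46 FPKM in the control pool and 20.2 FPKM in the csMed1-/- pool (log2 2.54).

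Among these pairs were also genes of related function. Mrpl36 (81.0 and 58.3 FPKM, log2 -0.47) overlaps at its start with Ndufs6, a subunit of complex I, which had 1043 and 447 FPKM (log2 -1.22). Mrps12 starts 172 bases from Sars2, the mitochondrial seryl-tRNA synthetase, which had 19.3 and 6.09 FPKM (log2 -1.67), while Mrps12 itself was above control. Mrps11 (40.4 and 37.1 FPKM, log2 -0.12) and Mrpl46 (33.6 and 21.4 FPKM, log2 -0.65) face each other, so this pair was counted from both sides. Across the 23 values Spearman's rho between the log2 ratios of neighbours was 0.05. The libraries were directional, but whether the authors' counting used strand is not given in the sources used here, so overlapping starts cannot be fully told apart.

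**Figure D5:**
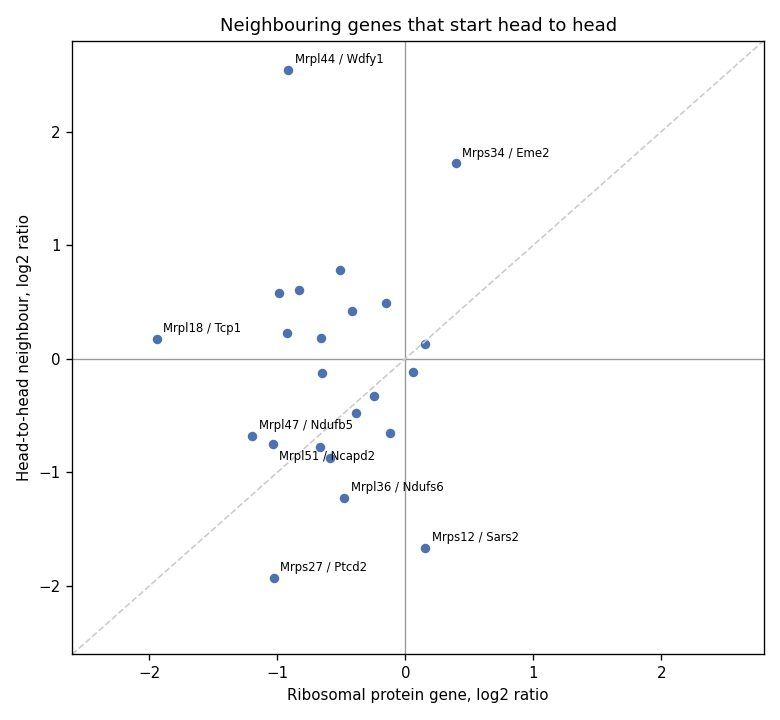
The log2 ratio of csMed1-/- to Med1fl/fl FPKM of a mitoribosomal gene (horizontal) against that of the neighbour starting head to head with it (vertical) for the 23 cases with both genes kept; the dashed line marks equal ratios. Points lie in all 4 quadrants around 0, with Mrps27 and Ptcd2 at the lower left and Mrpl44 and Wdfy1 at the upper left.

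Promoters were read for motifs of factors known for nuclear genes of mitochondria: NRF1 (the palindrome made of GCGCA and its reverse complement, and separately TGCGCA, which overlaps it), the ETS family with GABP (CCGGAAG), YY1 (AAGATGGC) and the oestrogen-related receptors (TCAAGGTCA). RefSeq promoters of GRCm38.p6, 250 bases before to 50 after the start, matched 64 of the 74 genes, and both strands were searched. At least 1 motif was present in 41 of the 64 (64.1%), against 36.0% of the 7408 genes kept with a promoter. The ETS motif was held by 23 of 64 (35.9%, against 19.8%), TGCGCA by 18 (28.1%, against 16.0%), the YY1 motif by 12 (18.8%, against 5.35%), the NRF1 palindrome by 3 (4.69%, against 2.23%) and the receptor motif by 0 (against 0.391%).

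The stretches below are 30 bases each with the match in capitals, shown as examples from both ends of the ratios among the holders of a motif. The NRF1 palindrome was in these 3 promoters, of which Mrpl39 and Mrpl9 were lower past 2-fold and Mrpl32 (19.7 and 17.7 FPKM) was not:
Mrpl39, chr16:84735350-84735379, minus strand: aaggagaggcGCGCATGCGCccccgcgtgg
Mrpl9, chr3:94443298-94443327, plus strand: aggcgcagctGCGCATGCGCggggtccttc
Mrpl32, chr13:14613105-14613134, minus strand: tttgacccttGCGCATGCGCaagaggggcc

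The ETS motif was in the promoters of genes far below control and of genes above it:
Mrpl18, chr17:12916312-12916341, minus strand: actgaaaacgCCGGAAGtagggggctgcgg
Mrpl3, chr9:105053238-105053267, plus strand: tgagaaacggaCCGGAAGtggcccggctgt
Mrpl33, chr5:31613937-31613966, plus strand: ccgcgcatgccCCGGAAGtagtcgttgagc
Mrpl17, chr7:105811306-105811335, minus strand: gcatgctccgcCCGGAAGgcgcctcctcca

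The YY1 motif lay just after the start of Mrpl42, Mrps27 and Mrps18a:
Mrpl42, chr10:95501904-95501933, minus strand: cagattgaagcAAGATGGCgagcgcgcggt
Mrps27, chr13:99344789-99344818, plus strand: tggtgcgctccAAGATGGCggctcccatgg
Mrps18a, chr17:46111004-46111033, plus strand: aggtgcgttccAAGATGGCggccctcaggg

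Of the 24 genes lower past 2-fold, Mrps28, Mrpl19 and Mrps35 had no promoter in the table and were not searched. Among the 64 genes searched, those holding the ETS motif had a median log2 ratio of -0.51 and those without it -0.66. For the YY1 motif the medians were -0.30 and -0.68, for TGCGCA -0.35 and -0.66, and for the NRF1 palindrome, with 3 genes, -1.08 and -0.65. The genes with the lowest and, apart from the joined row, the highest ratio, Mrps36 and Mrpl20, held none of these letters in the window. A match is a run of letters and not a bound site, and its absence says nothing about the factor. The 250 bases before the start of each are, in GRCm38.p6:
Mrps36, chr13:100744660-100744909, minus strand: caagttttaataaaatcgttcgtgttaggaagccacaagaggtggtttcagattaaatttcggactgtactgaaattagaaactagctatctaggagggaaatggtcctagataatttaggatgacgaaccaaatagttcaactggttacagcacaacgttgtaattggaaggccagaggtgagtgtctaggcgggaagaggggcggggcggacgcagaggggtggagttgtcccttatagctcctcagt
Mrpl20, chr4:155802628-155802877, plus strand: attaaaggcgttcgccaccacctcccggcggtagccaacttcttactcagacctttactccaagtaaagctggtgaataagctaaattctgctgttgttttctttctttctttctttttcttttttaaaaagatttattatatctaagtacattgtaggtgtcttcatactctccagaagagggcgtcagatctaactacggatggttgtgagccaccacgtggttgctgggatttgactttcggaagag

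The G and C content of these stretches was 45.6% for Mrps36 and 41.6% for Mrpl20. Of the factors themselves, Nrf1 had 5.07 FPKM in the control pool and 5.65 FPKM in the csMed1-/- pool, Gabpa 0.665 and 0.527 FPKM, Yy1 4.47 and 3.06 FPKM, and Esrra, the gene of oestrogen-related receptor α, 127 and 61.4 FPKM (log2 -1.05).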

How the data were processed

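The authors pooled heart RNA of 5 mice per genotype, enriched polyadenylated RNA, made directional libraries and read them as 50 bp single-end reads. Per the study's methods and the submitters' processing notes, reads were aligned to mm10 with TopHat2 2.0.8b, and known UCSC genes were measured with Cufflinks and Cuffdiff 2.1.1. The deposited values are FPKM, 1 column per library, with 23424 rows; which library scaling was used is not given in the sources used here.

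Rows sharing a symbol, as 412 symbols do, were summed, and ratios were computed with no pseudocount. Read counts were not used here, so the depth behind each value is unknown. Among 2461 rows at 0.15 FPKM or less in both libraries, ratios piled up at 0.719, the step of 1 read in each, so that, if values were scaled to mapped fragments alone, csMed1-/- reads outnumbered control reads by 1.39 to 1.

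The members and gene lists were chosen with earlier results of these data known. The text names every member past 2-fold, the 8 lowest and 8 highest ratios and the 5 highest control levels of each subunit, the 3 members on either side of the 2-fold line, the Mrps18 paralogues, Mrps30, Mrps36, cardiomyopathy genes and mitoribosomal proteins with other symbols. Classes by origin and by site in the ribosome, head-to-head neighbours and the sequences shown were chosen after the files were opened. Positions and transcript lengths come from GENCODE M21 (GRCm38, the assembly of mm10), all 75 members matching by symbol with Mrps6 for the joined row, and promoters from RefSeq GRCm38.p6. The computation was tested on simulated data. Python 3.11.15, numpy 2.4.6, pandas 2.3.3 and matplotlib 3.10.9 were used. Alternatives were pseudocounts of 0.1 and 1 FPKM, 3 filters on low values, 4 scalings, 1 row per symbol, other memberships and folds of 1.5 and 4.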

Additional observations from a re-analysis of the deposited data

How the results depend on the processing

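With 1 library per genotype, an alternative was taken to move a median or a summed ratio when it shifted it by 0.1 or more on the log2 scale, and a count when it changed it by more than 1.5 times. No direction reversed for the subunit medians or summed ratios, or for any of the 24 genes past 2-fold, under any alternative run. The fold threshold moved the counts most: at 1.5-fold 40 genes were lower and 3 higher, and at 4-fold 2 were lower. The shares of all genes kept at these folds, and under the pseudocounts, filters and scalings, are not given here. These counts therefore cannot be set against the library as a whole. Centring the ratios within 10 bins of mean FPKM took the median of the small subunit to -0.56. It took the summed ratios to 0.644 for the large and 0.677 for the small subunit. Centring subtracts the median log2 ratio of each bin, which ran from -0.23 to 0.15 in the bins holding mitoribosomal genes. Why the bins differ was not tested. Across the pseudocounts, filters and scalings the number of genes lower past 2-fold ran from 19, with a pseudocount of 1 FPKM or with ratios centred on the median of all genes, to 27 within the bins. The bins moved the log2 ratios of single mitoribosomal genes by -0.15 to 0.23. Mrpl11 turned above control with centring on the median, and Mrpl43 and Mrps17 turned below it with scaling to the 75th percentile, without the 100 highest genes and within the bins, the last of which also turned Mrpl16, Mrpl24 and Mrps7. Dropping the joined row Mrps6,Slc5a3, and adding the rows Mrp63 and Ccdc142,Mrpl53, were chosen after seeing the data. No symbol marked as a pseudogene was among the members, so that alternative gave no value. Depth limits mostly the genes of few FPKM, such as Mrpl1, Mrpl19, Mrpl47 and Mrpl50. No paired analysis was possible because each genotype has 1 library and the labels carry no replicate numbers.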

Other observations

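The transcripts of the 74 mitoribosomal genes kept were short, with a median of 1284 bases in the GENCODE M21 annotation (418 to 7300 bases), against 2817 bases for the genes kept as a whole. The 46 genes of up to 1500 bases had a median log2 ratio of -0.49 and the 28 longer ones -0.88. Among all genes kept, the 1601 of up to 1500 bases had a median log2 ratio of 0.00. Across the 74 genes Spearman's rho between transcript length and log2 ratio was -0.23, and across the genes kept as a whole it was -0.08. These are descriptions across genes of the same libraries, and the length of the transcript that the authors' annotation used may differ.

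The annotation lists pseudogenes under the symbols of 3 mitoribosomal genes, Mrps36, Mrpl23 and Mrpl48, and the first 2 of these were lower past 2-fold.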
